A study of Mus musculus with 3 samples.

Results

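Nqo1, Gclc, Gclm, Txnrd1, Srxn1, Gpx3, Mt1, Mt2, Sod2 and Cat encode enzymes and metal-binding proteins that handle peroxide, superoxide, quinones and free metal ions. These 10 genes, of 27998 genes measured, were taken by their symbols for what they encode, and every symbol was found. They were followed through single-cell libraries from kidneys of mice 14 days after folic acid (FA), which injures the tubules. There were 2 Aoah-/- mice, which lack acyloxyacyl hydrolase, and 1 WT mouse. This enzyme removes fatty acyl chains from bacterial lipopolysaccharide. The labels give an age of 6 to 8 weeks for all 3 mice, and the study's methods describe a deletion backcrossed to C57/BL6J mice with WT littermates as controls. The study's figure legends for FA give an older range of ages, and which holds for these mice could not be settled. All 3 mice had received FA, and kidneys without FA were not analysed here. Values in a series of 3 stand in the order Aoah-/- mouse 2, Aoah-/- mouse 3 and WT mouse 3, and levels are CPM, the UMIs (molecules counted once) of a gene per 1000000 UMIs summed over the cells of a class.

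Gclc (catalytic) and Gclm (modifier) are the subunits of glutamate-cysteine ligase, which makes the first step of glutathione synthesis. Nqo1 reduces quinones, Txnrd1 reduces thioredoxin, and Srxn1 repairs over-oxidised peroxiredoxins. These 5 genes are textbook targets of NRF2, a transcription factor that KEAP1 keeps low until oxidants or electrophiles modify KEAP1, and that binds antioxidant response elements. Gpx3 is the secreted glutathione peroxidase of plasma and is made mainly by the proximal tubule. Sod2 is the superoxide dismutase of mitochondria, and Cat is catalase, the peroxide-splitting enzyme of peroxisomes. Mt1 and Mt2 are metallothioneins, small cysteine-rich proteins that bind zinc and copper, and MTF1 drives their transcription through metal response elements.

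In the GRCm38 annotation, Mt2 lies at chromosome 8, 94172664 to 94173568, and Mt1 at chromosome 8, 94179082 to 94180327, both on the plus strand with 5513 bases between them. Gclm lies at chromosome 3, 122245557 to 122270732, also on the plus strand. The 250 bases before the RefSeq start of these genes (GRCm38.p6) are shown because Mt1 and Mt2 varied together over the cell classes and Gclm differed clearly between tubule segments. The motifs searched, on both strands, were the metal response core (TGCACNC or TGCGCNC) and the antioxidant response core (TGACNNNGC). Capitals mark matches to both motifs in Mt2, to the metal response core in Mt1 and to the antioxidant response core in Gclm. RefSeq and the gene annotation place the starts of Mt1 and Mt2 some bases apart.
Mt2, chr8:94172368-94172617, plus strand: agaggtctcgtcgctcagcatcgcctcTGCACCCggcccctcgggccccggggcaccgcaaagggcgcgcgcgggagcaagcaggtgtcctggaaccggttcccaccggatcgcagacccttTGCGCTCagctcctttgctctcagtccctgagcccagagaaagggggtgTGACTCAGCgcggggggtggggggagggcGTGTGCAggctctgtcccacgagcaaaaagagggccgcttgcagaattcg
Mt1, chr8:94178839-94179088, plus strand: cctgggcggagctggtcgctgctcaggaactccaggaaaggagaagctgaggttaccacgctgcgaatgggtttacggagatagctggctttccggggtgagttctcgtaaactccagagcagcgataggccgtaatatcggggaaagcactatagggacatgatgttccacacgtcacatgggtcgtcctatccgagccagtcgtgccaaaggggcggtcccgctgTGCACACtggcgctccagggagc
Gclm, chr3:122245307-122245556, plus strand: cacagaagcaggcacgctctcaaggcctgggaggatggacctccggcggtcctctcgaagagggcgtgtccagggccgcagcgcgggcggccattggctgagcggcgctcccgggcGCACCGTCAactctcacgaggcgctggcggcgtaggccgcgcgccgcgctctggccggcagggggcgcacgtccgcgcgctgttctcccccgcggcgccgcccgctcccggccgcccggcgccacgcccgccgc

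Mt2 held 3 matches to the metal response core, 223, 128 and 50 bases before the start, and 1 to the antioxidant response core, 79 bases before it. Within the bases shown, Mt1 held 1 metal response match, 23 bases before the RefSeq start used. For every gene, bases farther upstream or past that start were not searched, so sites there are not counted. Gclm held 1 antioxidant response match on the minus strand, 134 bases before the start, and 2 metal response matches left in lower case, of which the one at 138 bases shares letters with it. At least 1 metal response match was present in 21.4% of 32851 promoters of this length, and at least 1 antioxidant response match in 10.2%. Of the 10 genes 9 had a promoter sequence, and among the remaining 6 the antioxidant core was found in 1 of 3 starts of Txnrd1 and the metal response core in Srxn1. These are matches of letters, not measured binding.

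The libraries held 23072 to 25516 barcodes and 158551992 to 167222984 UMIs, and 18202 to 21368 cells per library were kept. Pairs of libraries shared 171 to 176 barcodes, at most 0.763% of a library. Cells were clustered without the 10 genes, and 18 classes were named from marker genes. Proximal tubular epithelial (PTEC-like) cells numbered 8058, 4755 and 9327. Injured PTEC-like cells, with Vcam1 at 849, 749 and 589 CPM and Havcr1 at 167, 142 and 147 CPM, numbered 180, 359 and 132. An unnamed cluster led by Lcn2 and Clu, both genes of injured tubules, held 602, 983 and 366 cells. The deleted gene checked the labels. Aoah was at 13.2, 12.3 and 26.6 CPM in PTEC-like cells and at 3.84, 4.26 and 19.5 CPM in macrophage-like cells, lower in both Aoah-/- mice, although 3′ reads need not fall in the deleted stretch.

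With 1 WT mouse no test across mice can be made, and no p-value is given. A gene is said to meet the rule when both Aoah-/- values are above, or both below, the WT value, their mean is farther from WT than they are from each other, and the means differ at least 1.5-fold. The share of all genes at 20 CPM or more in either group that met the rule is given as background. A gene could thus reach 20 CPM only through the group where it was higher, and the background genes were filtered in the same way. Log2 differences compare the Aoah-/- mean with WT after 1 CPM was added, with the SD of the 2 Aoah-/- mice. Intervals are exact Poisson 95% intervals and cover counting error only.

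By the mean of the 3 libraries, Gpx3, Cat, Gclm and Sod2 were highest in PTEC-like cells among the 18 classes. Gpx3 stood at 12629.5, 12004 and 8111 CPM, and PTEC-like cells held 82.2%, 71.1% and 87.2% of its UMIs in kept cells. Cat stood at 535, 509.6 and 489 CPM, above every other class in all 3 libraries. Sod2 stood at 463, 462 and 537 CPM and its ranges were also apart from the next class, intercalated-like cells at 399, 418 and 420.5 CPM. Gclm, at 369.8, 364 and 445 CPM, overlapped with injured PTEC-like cells at 243, 234 and 444 CPM. Erythroid-like cells came second for Gpx3 and Cat, and they also held Kap, an abundant PTEC marker, at 14048, 32623 and 23311 CPM, against 2249, 2236 and 2491 CPM in T lymphocyte-like cells.

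**Figure D1:**
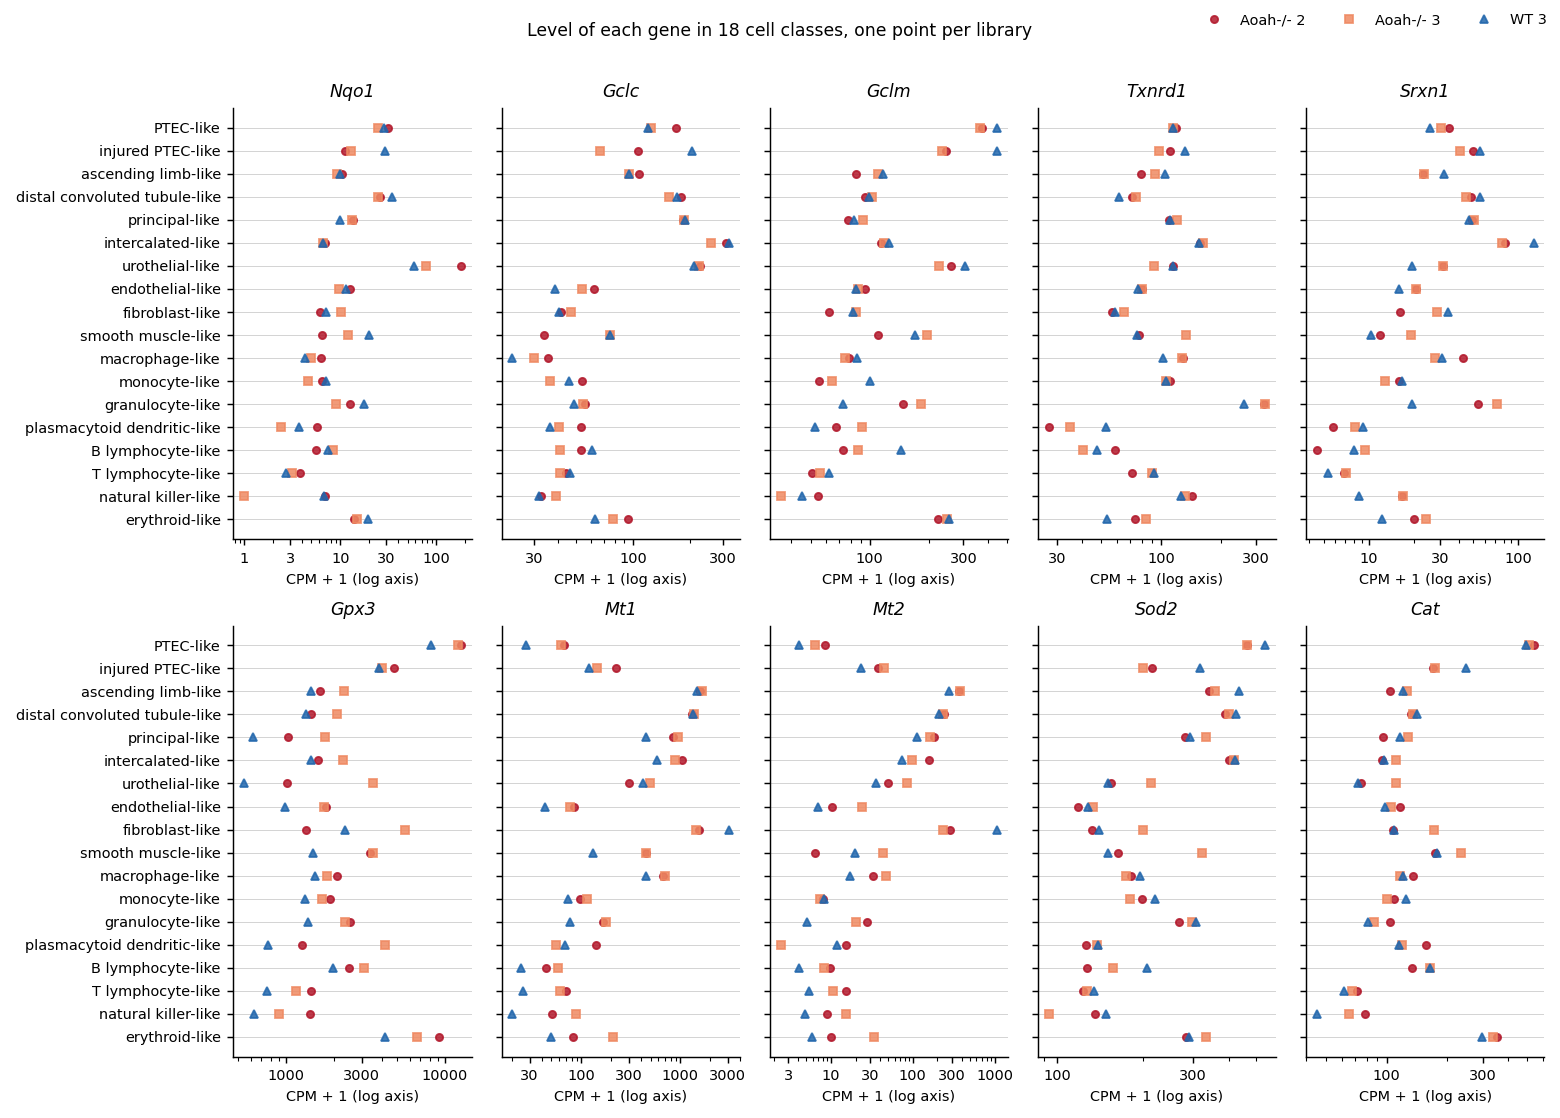
Level of each gene (CPM + 1, log axis) in the named cell classes, with 1 point for each of the 3 libraries. Gpx3, Cat, Gclm and Sod2 peak in PTEC-like cells, Gclc and Srxn1 in intercalated-like cells, Nqo1 in urothelial-like cells, Txnrd1 in granulocyte-like cells, and Mt1 and Mt2 in fibroblast-like cells and the distal nephron.

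The other NRF2 targets peaked elsewhere. Gclc was highest in intercalated-like cells, the acid and base transporting cells of the collecting duct, at 310.5, 257 and 323 CPM. Urothelial-like cells followed at 226, 224 and 211 CPM, and the ranges of the 2 classes did not overlap. Srxn1 was also highest in intercalated-like cells, at 80.7, 76.4 and 125 CPM. Txnrd1 was highest in granulocyte-like cells, at 327, 333 and 259 CPM, apart from intercalated-like cells at 155, 161 and 154 CPM. Nqo1 was highest in urothelial-like cells, the lining of the renal pelvis, at 179.8, 76.6 and 56.9 CPM, against 30.5, 23.7 and 27.2 CPM in PTEC-like cells. Aoah-/- mouse 2 stood apart there: its urothelial-like cells held 40.1% of the Nqo1 UMIs of its kept cells, against 10.3% in Aoah-/- mouse 3 and 5.05% in WT mouse 3. These shares also depend on the size of the class, which held 523, 390 and 170 cells with 8458488, 2844935 and 2336507 UMIs.

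Mt1 and Mt2 were highest in fibroblast-like cells and the distal nephron. Ascending limb-like cells held Mt1 at 1580.5, 1652 and 1475 CPM and Mt2 at 366, 374 and 276 CPM. Distal convoluted tubule-like cells held Mt1 at 1313, 1385 and 1326 CPM and Mt2 at 238, 232 and 206 CPM. For both genes the ranges of these 2 classes did not overlap. In fibroblast-like cells Mt1 stood at 1552, 1444 and 3116 CPM and Mt2 at 284, 232 and 1083 CPM, higher in WT than in both Aoah-/- mice. These cells numbered 32, 179 and 364, and those of WT mouse 3 held 24.7% of its Mt1 UMIs and 38.4% of its Mt2 UMIs.

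Over the 18 classes Mt1 and Mt2 followed each other (Pearson r = 0.94 on mean log2(CPM + 10)), and so did Gpx3 and Cat (r = 0.93). These values describe classes from the same 3 libraries and carry no p. The genes outside the list with the most similar pattern to Gpx3 were Slc5a2 (0.98), Hgd (0.98) and Proc (0.98), with r in brackets, and Slc5a2 is the glucose transporter of the early proximal tubule. For Cat they were Amacr (0.98), Cyp2e1 (0.97) and Slc17a3 (0.97), and for Sod2 Bnip3 (0.96), Pgam1 (0.92) and Dld (0.92). Gclm was most like Acot1 (0.95), Me1 (0.91) and Cyb5a (0.90), and Gclc most like Tmprss2 (0.93), Lad1 (0.92) and Cxadr (0.92). The closest to Mt1 were Mitf (0.92), Pcolce (0.87) and Specc1 (0.87) and to Mt2 Ak1 (0.93), Pcolce (0.91) and Dbn1 (0.90). Likeness was weaker for Txnrd1, with Lrrfip2 (0.80), Kif23 (0.76) and Rab20 (0.75), and for Srxn1, with Gde1 (0.86), Pgam1 (0.85) and Atp6v1e1 (0.83). Nqo1 was closest to Perp (0.88), Ovol1 (0.87) and Fam25c (0.87).

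Within the proximal tubule the genes differed by segment. PTEC-like cells were split into 14 subclusters, of which 3 carried markers of the S1/S2 segments (2296, 1670 and 1713 cells) and 3 those of S3, the straight part (1324, 982 and 1344 cells). Slc5a2 stood at 618, 696 and 756 CPM in S1/S2-like and 12.1, 17.3 and 14.2 CPM in S3-like cells. Slc22a6, also on the S1/S2 list, went against the split, at 402, 406 and 282 CPM in S1/S2-like and 1052, 1101 and 1004 CPM in S3-like cells.

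Gpx3 was higher in S1/S2-like cells, at 20521, 20742 and 17669.6 CPM, than in S3-like cells, at 6389, 5152 and 5015 CPM. The log2 difference of S3-like from S1/S2-like cells was -1.84 ± 0.16 (SD, n = 3 libraries). Glutathione synthesis and Nqo1 lay the other way. Gclm stood at 220.2, 199 and 212 CPM in S1/S2-like and 461, 512 and 517 CPM in S3-like cells, a log2 difference of 1.24 ± 0.15. Gclc stood at 106, 81.8 and 77.9 CPM and 172, 129 and 118 CPM (0.65 ± 0.05). Nqo1 stood at 17.9, 11.3 and 10.8 CPM and 44.5, 37.7 and 37.4 CPM (1.54 ± 0.24). In none of these 4 genes did the segments overlap, and the same held for Cat, Txnrd1, Srxn1 and Mt1. Sod2 and Mt2 overlapped. The share of all genes without overlap was not counted.

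At least 1.5-fold in each library, 3 of the 10 genes (Nqo1, Gclc and Gclm) were higher in S3-like cells, as were 6.25% of all genes. Another 3 (Gpx3, Mt1 and Mt2) were lower, as were 17.1% of all genes. Cat, at 469, 429 and 388 CPM in S1/S2-like and 675, 669.9 and 613 CPM in S3-like cells, was higher in S3-like cells in all 3 libraries, by 0.61 ± 0.07, but did not reach 1.5-fold in every one. Sod2 differed by 0.06 ± 0.07, Txnrd1 by 0.29 ± 0.03 and Srxn1 by -0.38 ± 0.16.

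**Figure D2:**
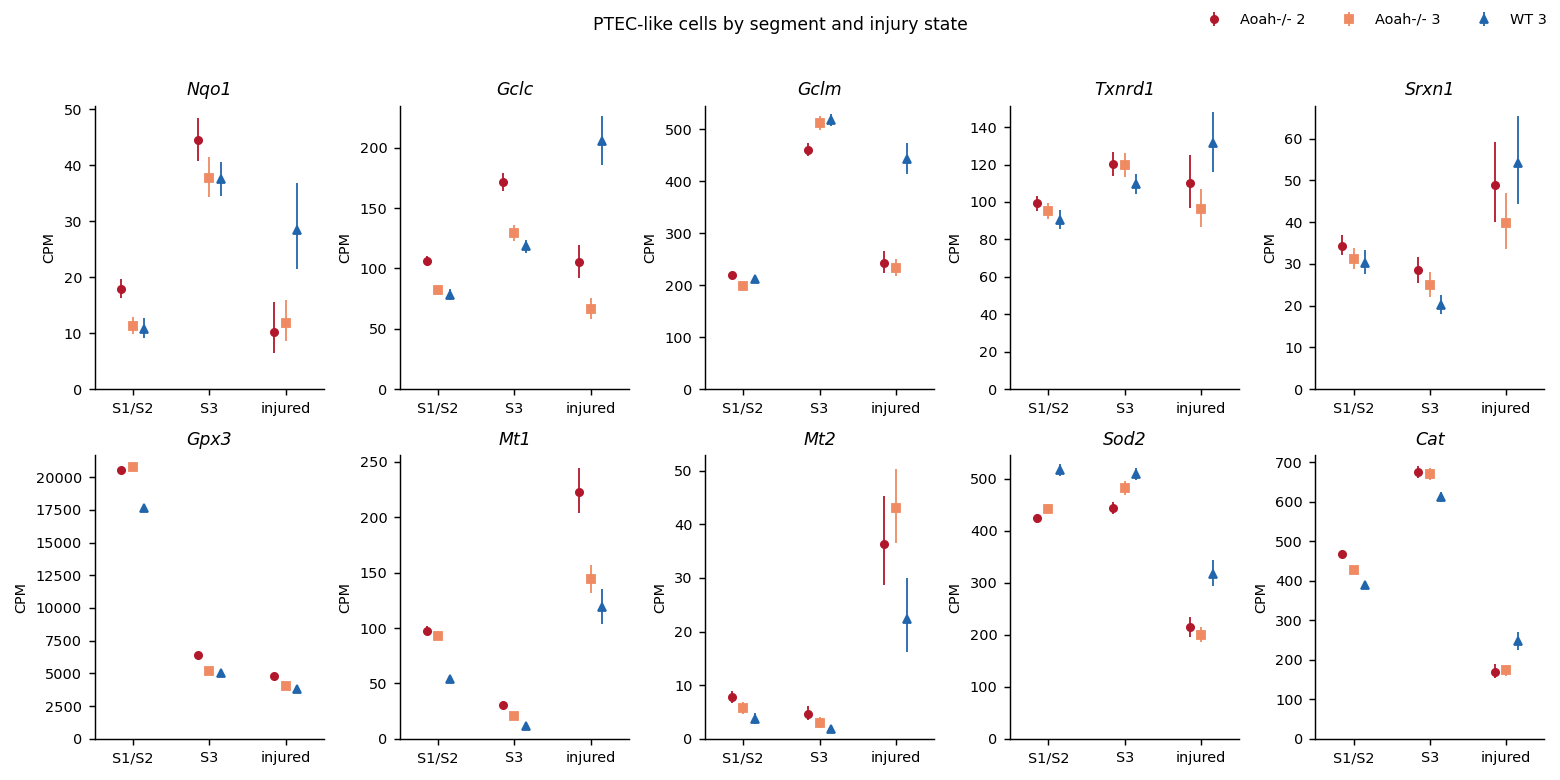
Level (CPM) of each gene in S1/S2-like, S3-like and injured PTEC-like cells, with 1 point per library and exact Poisson 95% intervals for counting error. Gpx3 is lower in S3-like than in S1/S2-like cells while Nqo1, Gclc, Gclm and Cat are higher, and injured cells have less Sod2 and Cat and more Mt1 and Mt2 than either segment.

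Injured PTEC-like cells had less Gpx3, Cat and Sod2 and more metallothionein RNA than S1/S2-like cells of the same library. Gpx3 stood at 4804, 4034 and 3827 CPM, a log2 difference of -2.22 ± 0.13. Cat, at 169.8, 173 and 247 CPM, differed by -1.14 ± 0.43, and Sod2, at 214, 199.9 and 317 CPM, by -0.94 ± 0.22. These 3 genes were at least 1.5-fold lower in every library, as were 7.75% of all genes. Mt1, at 223, 144 and 119 CPM, and Mt2, at 36.3, 43.0 and 22.3 CPM, were higher, by 0.98 ± 0.31 and 2.38 ± 0.31. They were 2 of 10, while 34.2% of all genes were higher, so the count was below the background share.

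Set against S3-like cells, Srxn1, Mt1 and Mt2 were higher (3 of 10, against 47.8% of all genes), and Sod2 and Cat were lower (2 of 10, against 8.10%). Gpx3 differed from S3-like cells by -0.38 ± 0.03, much less than from S1/S2-like cells. Gclm was higher than in S1/S2-like cells in all 3 libraries, by 0.48 ± 0.51, but did not reach 1.5-fold in every one. Gclc and Nqo1 had no common direction over the libraries against S1/S2-like cells, with log2 differences of 0.36 ± 0.90 and 0.21 ± 1.04. Against S3-like cells Nqo1 (-1.33 ± 0.85) and Gclm (-0.76 ± 0.47) were lower in all 3 libraries, also without 1.5-fold in every one. Gclc differed from S3-like cells by -0.29 ± 0.94, without a common direction.

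The cells led by Lcn2 and Clu held ascending limb markers at 5882, 5221 and 4397 CPM in sum and were compared with ascending limb-like cells. Gclc was higher in them, by 0.82 ± 0.28, the only 1 of the 10 genes, where 18.5% of all genes were higher. Gpx3, Mt1 and Sod2 were lower (3 of 10, against 6.33%). Mt1 stood at 722, 862 and 622 CPM, a difference of -1.10 ± 0.15, whereas Mt2, at 301, 357 and 250.1 CPM, differed by -0.16 ± 0.11. The neighbouring metallothionein genes thus differed in size of change here.

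The design asks how kidneys without Aoah differ from WT after FA. In PTEC-like cells Gpx3, Mt1 and Mt2 were higher in Aoah-/- mice and met the rule, and none of the 10 genes met it as lower. Mt2, at 7.38, 5.33 and 3.04 CPM, was below 20 CPM. Among the 9 genes at 20 CPM or more, 2 met the rule as higher, against 2.31% of 5112 genes, and 0 as lower, against 1.53%. The median log2 difference of the 10 genes was 0.19, against -0.06 over all genes.

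The enzymes of the NRF2 group, Sod2 and Cat did not meet the rule in PTEC-like cells. Gclm (given above by library) differed by -0.28 ± 0.02 and Sod2 by -0.22 ± 0.0018, both lower in each Aoah-/- mouse than in WT. Srxn1, at 33.2, 29.6 and 24.8 CPM, differed by 0.33 ± 0.11, and Gclc, at 169, 123 and 119 CPM, by 0.29 ± 0.32. Both Aoah-/- values of Gclc were above WT, but they lay farther from each other than their mean lay from WT. Txnrd1, at 117, 114 and 114 CPM, differed by 0.03 ± 0.03, Nqo1 by -0.01 ± 0.25 and Cat by 0.09 ± 0.05.

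The higher Gpx3 of Aoah-/- PTEC-like cells was less marked within segments and at a common mix of subclusters. Its level was 1.52-fold that of WT over all PTEC-like cells (log2 difference 0.60 ± 0.05), 1.17-fold in S1/S2-like cells and 1.15-fold in S3-like cells, and it met the rule in neither segment. S1/S2-like cells, with more Gpx3, made up 28.5%, 35.1% and 18.4% of PTEC-like cells. S3-like cells, with less, made up 16.4%, 20.7% and 14.4%, also more in both Aoah-/- mice. The remaining cells lay in subclusters given no segment. One of these held 352, 147 and 1507 cells, with Gpx3 at 4602, 4896 and 4772 CPM. The part of each subcluster in the difference was not tested. With all libraries set to 1 common mix of the 14 subclusters, an alternative chosen after the data were seen, Gpx3 stood at 10992, 10694 and 10001 CPM. The log2 difference was then 0.12, and Gpx3 did not meet the rule. In the subcluster richest in Gpx3 the levels were 24223, 25544 and 23421 CPM, and in the poorest 2574, 2235 and 1530.2 CPM. Without Aoah-/- replicate 2 the PTEC-like level was 1.48-fold that of WT and no longer met the rule. The markers of injured tubules, 11 genes in sum, stood at 1116, 1014 and 428 CPM in the same cells, and their part was not tested.

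**Figure D3:**
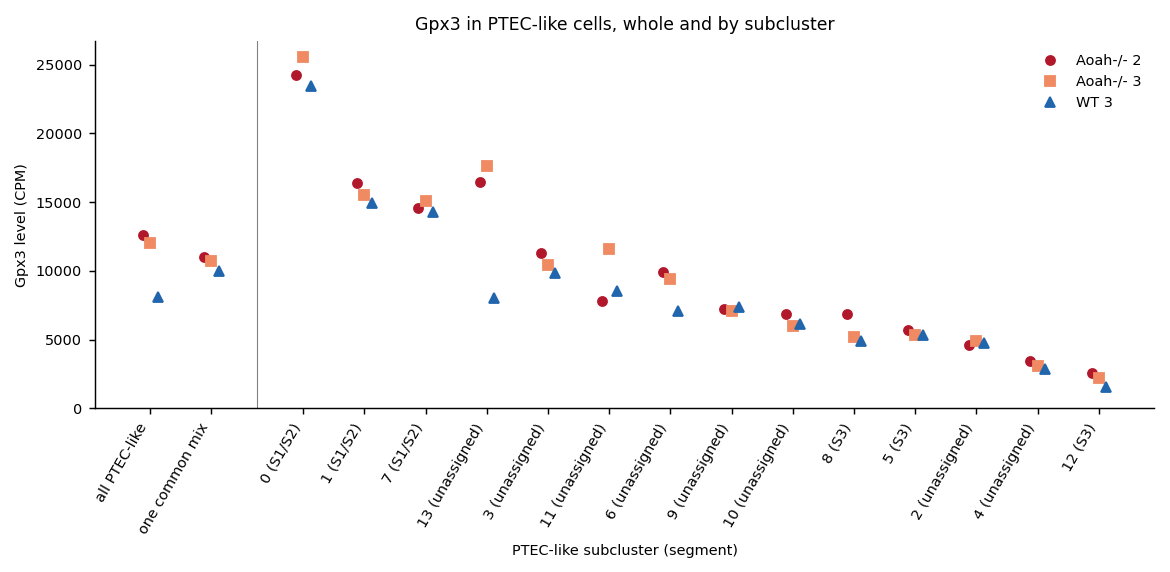
Gpx3 level (CPM) in all PTEC-like cells, at a common mix of the 14 subclusters and in single subclusters, with 1 point per library. WT lies well below both Aoah-/- mice over all PTEC-like cells and close to them at the common mix.

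Mt1 in PTEC-like cells stood at 66.6, 60.9 and 26.7 CPM, 2.39-fold higher in Aoah-/- mice. It stood at 97.4, 93.1 and 53.7 CPM in S1/S2-like and 30.5, 20.1 and 11.8 CPM in S3-like cells, and at the common mix at 59.1, 57.7 and 32.0 CPM. Macrophage markers moved with it in the same cells, at 68.7, 58.7 and 30.7 CPM in sum over PTEC-like, 45.9, 31.5 and 19.3 CPM over S1/S2-like and 56.5, 33.9 and 21.3 CPM over S3-like cells. Granulocyte markers summed to 22.1, 24.1 and 4.41 CPM over PTEC-like cells. Markers of injured tubules were also higher in both Aoah-/- mice, at 1116, 1014 and 428 CPM in sum over PTEC-like cells. They stood at 1825, 1705 and 1132 CPM over S1/S2-like and 455, 446 and 173 CPM over S3-like cells. The part of each marker group in Mt1 was not tested. Mt1 met the rule also without the PTEC-like cells that held an immune-marker UMI. That filter left 3337 of 8058, 1310 of 4755 and 5395 of 9327 cells, so the libraries lost unequal shares. A single such UMI removed a cell, whatever its depth. In both segments Mt1 and Mt2 met the rule as higher and none of the 10 genes as lower. Mt1 kept the call in 12 of 12 alternatives in each segment, while Mt2 lost it in 2 of 12 in S1/S2-like and 5 of 12 in S3-like cells. Mt2 was below 20 CPM there too, at 7.73, 5.72 and 3.63 CPM and 4.66, 2.88 and 1.82 CPM. At 20 CPM or more, Mt1 was thus 1 of 8 genes in S1/S2-like and 1 of 9 in S3-like cells, and 0 were lower. In S3-like cells Mt1 reached 20 CPM only through the Aoah-/- mice, with a mean of 25.3 CPM against 11.8 CPM in WT. The background was 1.29% higher and 1.79% lower in S1/S2-like cells, and 1.35% higher and 1.65% lower in S3-like cells.

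Lymphocytes carried Mt1 at like levels, also higher in both Aoah-/- mice. T lymphocyte-like cells held it at 69.4, 59.8 and 24.6 CPM and B lymphocyte-like cells at 42.6, 57.8 and 23.6 CPM. With each cell thinned to 1000 UMIs, the share of cells with a Mt1 UMI was 6.44%, 6.75% and 2.96% in PTEC-like and 5.45%, 5.05% and 2.37% in T lymphocyte-like cells. Unthinned, the shares were 24.7%, 31.9% and 13.2% over all PTEC-like cells, with median depths of 3077, 6406 and 4833 UMIs, and 13.8%, 15% and 7.09% over all T lymphocyte-like cells, with 2485, 2967 and 2944.5 UMIs. Thinning left out the shallower cells, 1908, 0 and 1799 of PTEC-like and 43, 0 and 19 of T lymphocyte-like cells.

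Over all PTEC-like cells Mt1 thus lay close to its level in T lymphocyte-like cells, and the difference between mice is not read as one in expression by PTECs. The source of this RNA was not tested. By thinned share, S1/S2-like cells (9.63%, 9.22% and 5.45%) stood above T lymphocyte-like cells and S3-like cells (3.47%, 2.55% and 1.85%) below them, while ascending limb-like cells reached 66.2%, 61.2% and 68.3%. In ascending limb-like and distal convoluted tubule-like cells, which held the most Mt1 of the tubule, the ratio of Aoah-/- to WT was 1.10 and 1.02.

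The collecting duct differed from these classes. In principal-like cells Mt1 stood at 849.5, 949.8 and 449.8 CPM and Mt2 at 182, 163 and 113 CPM, and in intercalated-like cells Mt1 stood at 1046, 879 and 574 CPM, all far above the lymphocyte levels. Mt1 of the Aoah-/- mice was 1.89-fold and 2.11-fold that of WT in principal-like cells and 1.82-fold and 1.53-fold in intercalated-like cells. In principal-like cells 3 of 9 genes at 20 CPM or more met the rule as higher (Gpx3, Mt1 and Mt2), as did 1.79% of all genes. Gpx3, unlike the metallothioneins, was not above the lymphocyte level there. It averaged 1132 CPM (620 to 1747 CPM), against 1115 CPM (756 to 1433 CPM) in T lymphocyte-like cells. In intercalated-like cells 1 of 9 met it as higher (Mt1, background 1.10%) and 1 as lower (Srxn1, 1.41%). Mt2 of principal-like cells was 1.61-fold and 1.44-fold WT, and so under 1.5-fold without Aoah-/- replicate 2. The alternatives that changed cells or scaling were not run for these classes.

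Tubule cells rich in Mt1 also made up more of the Aoah-/- libraries, and fibroblast-like cells less. Ascending limb-like cells were 4.84%, 6.18% and 2.94% and distal convoluted tubule-like cells 3.05%, 5.35% and 2.87% of kept cells, and fibroblast-like cells 0.150%, 0.909% and 2%. Over all barcodes Mt1 stood at 331, 365 and 236 CPM. Their part in the Mt1 of other classes was not tested. Mt1 met the rule as higher in 10 of 18 classes, Gpx3 in 8 and Mt2 in 4. Of 11194 genes at 20 CPM or more in any class, 0.107% met it in at least 10 classes, 0.232% in at least 8 and 1.79% in at least 4. A class counted only where the gene reached 20 CPM there. Genes at that level in few classes could not reach these counts, which lowers the shares beside those of widely measured genes. Both Mt1 and Mt2 met it as lower in fibroblast-like cells, 2 of 9 genes at 20 CPM or more, where 17.6% of all genes did and Aoah-/- mouse 2 had only 32 cells.

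Gpx3 was likewise present in T lymphocyte-like cells, at 1433, 1155 and 756 CPM, again higher in both Aoah-/- mice. The order of the 3 mice was the same as in PTEC-like cells.

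**Figure D4:**
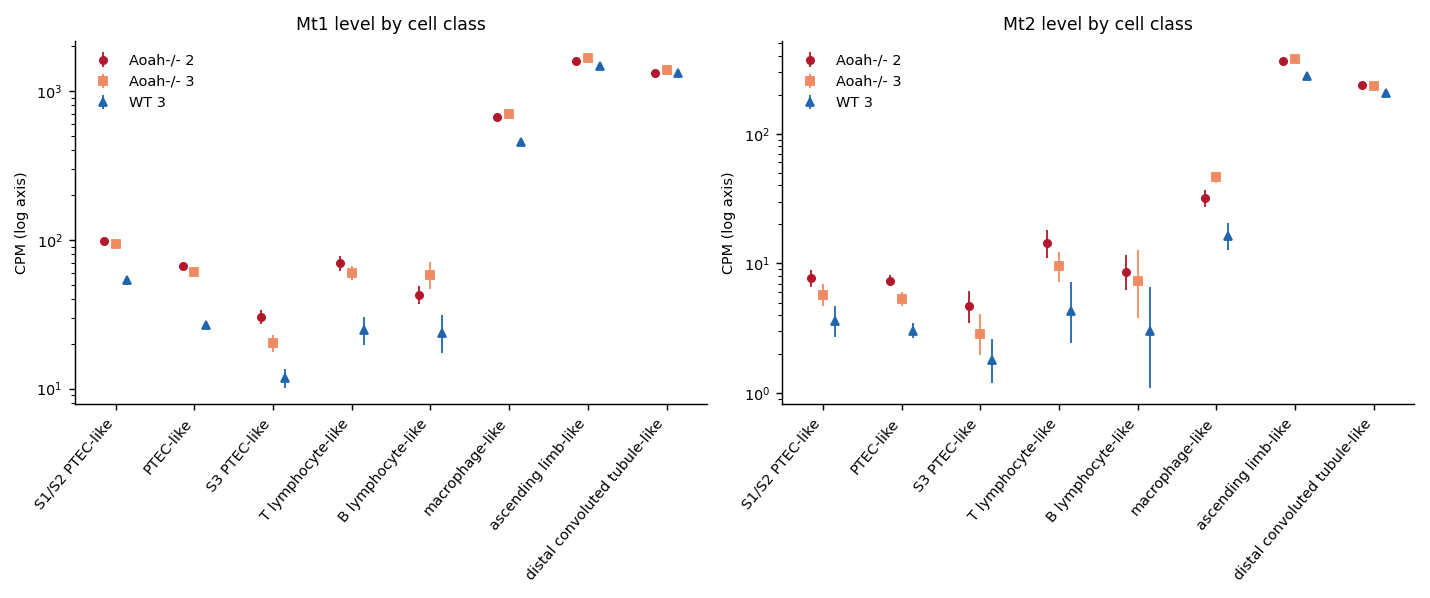
Level (CPM, log axis) of Mt1 and Mt2 in PTEC-like cells and other classes, with 1 point per library and exact Poisson 95% intervals. PTEC-like and T lymphocyte-like cells show nearly the same Mt1 levels in each library, far below those of the ascending limb-like and distal convoluted tubule-like cells.

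Macrophage-like cells held Mt1 well above lymphocytes, at 663, 694 and 452 CPM, and Mt2 at 32.0, 46.0 and 16.3 CPM. These 2 of the 10 genes met the rule as higher in Aoah-/- mice, as did 5.78% of all genes. The class joined 2 clusters, of which the shallow one, with median depths of 717, 2411 and 719 UMIs, made up 52.5%, 14.0% and 65.0% of it. This cluster held Gpx3 at 4746, 6999.9 and 3143 CPM, more than the deeper one in every library. In the deeper cluster alone, a choice made after the data were seen, Mt1 stood at 726, 732 and 525 CPM and no longer met the rule, while Mt2, at 32.3, 47.2 and 15.8 CPM, still did. Without Aoah-/- replicate 3, too, Mt1 of the whole class no longer met it, at 1.47-fold WT.

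In granulocyte-like cells (828, 640 and 218 cells) 5 genes met the rule as higher, Gclm, Srxn1, Gpx3, Mt1 and Mt2, but so did 18.0% of all genes. Gclm stood at 146, 181 and 72.0 CPM and Mt1 at 164, 177 and 76.2 CPM. Srxn1 stood at 52.9, 71.2 and 18.5 CPM, from 83, 125 and 9 UMIs, with an interval of 8.47 to 35.2 CPM in WT. In urothelial-like cells Srxn1, at 30.1, 30.6 and 18.4 CPM, was the 1 gene that met the rule as higher, as did 2.02% of all genes. Nqo1 did not meet it there, since the Aoah-/- mice lay farther from each other than their mean lay from WT.

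In injured PTEC-like cells several NRF2 targets and Sod2 were lower in Aoah-/- mice. Nqo1 stood at 10.2, 11.8 and 28.4 CPM (log2 difference -1.29 ± 0.13), from 22, 42 and 56 UMIs. Gclc differed by -1.25 ± 0.47 from 105, 66.1 and 205 CPM, Gclm by -0.89 ± 0.04 and Sod2 by -0.61 ± 0.07. These 4 of the 10 genes met the rule as lower, as did 5.37% of all genes, and Mt2 met it as higher (0.80 ± 0.17), as did 4.59%. Txnrd1, at 110.2, 96.4 and 131 CPM, and Srxn1, at 48.8, 39.9 and 54.2 CPM, were lower in both Aoah-/- mice without meeting it. Of 11 alternatives, Sod2 lost the call in 8, Mt2 in 5, and Nqo1, Gclc and Gclm in 3 each. Srxn1 gained a call as lower in 2 alternatives, Gpx3 as higher in 3 and Mt1 as higher in 2.

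The injured cells of the WT mouse also held more RNA of intact PTECs. The 14 PTEC markers summed to 16143, 11586 and 30468 CPM, and Slc7a13, an S3 transporter, stood at 66.0, 40.8 and 315 CPM. Erythroid markers, in contrast, summed to 1194, 962 and 193 CPM and granulocyte markers to 14.4, 99.0 and 5.58 CPM. Without the 10% of cells with the highest doublet (Scrublet) scores, 120, 346 and 81 injured cells were left, of 180, 359 and 132, and the markers summed to 4276, 8906 and 9400.3 CPM. Gclc then stood at 60.4, 49.7 and 47.0 CPM, Gclm at 168, 213 and 209 CPM and Nqo1 at 2.42, 9.35 and 10.6 CPM, and none of these 3 genes met the rule. Gclc turned from lower to slightly higher in Aoah-/- mice. Without Aoah-/- replicate 3, Sod2 was at 0.676 of WT and no longer met the rule.

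**Figure D5:**
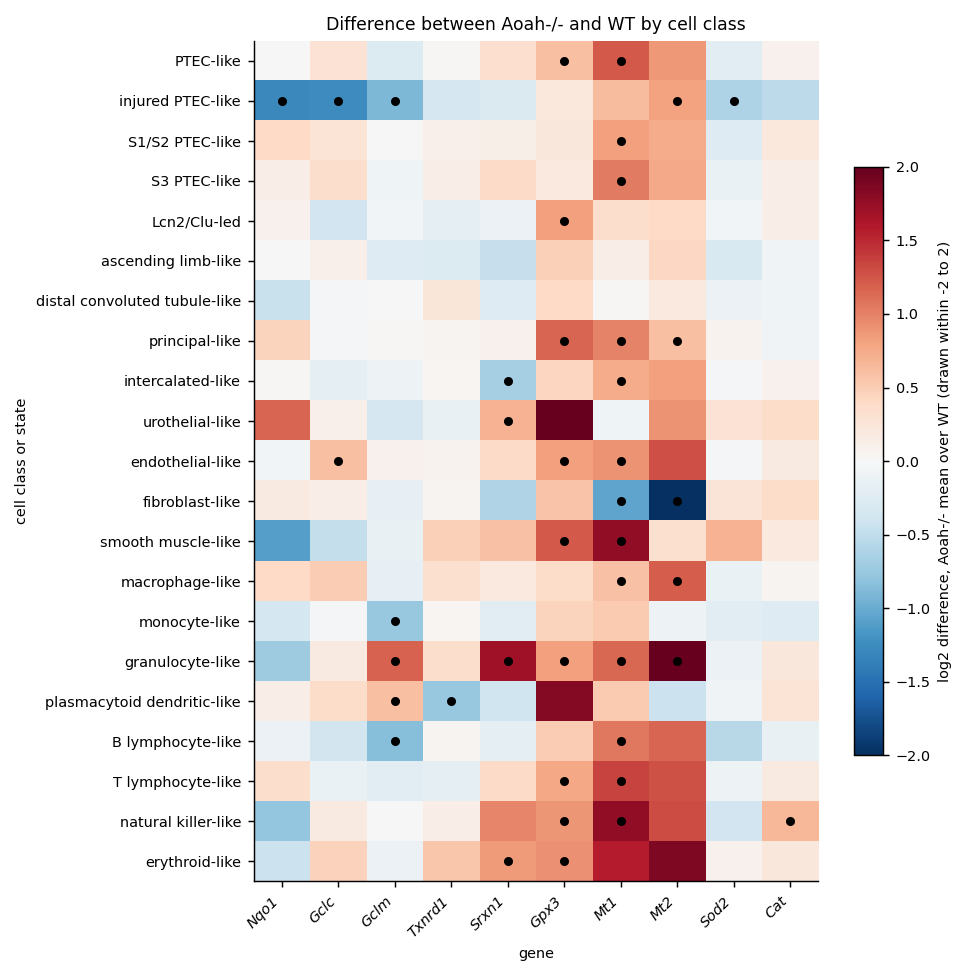
Log2 difference of each gene, Aoah-/- mean against WT, by cell class or state, on a colour scale that ends at -2 and 2. Black points mark genes at 20 CPM or more that meet the rule, most often as higher for Mt1 and Gpx3 and as lower for 4 genes of injured PTEC-like cells.

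The lists of related genes were read by the same rule in PTEC-like cells. Of 23 further genes of the NRF2 axis 19 were at 20 CPM or more, with 0 higher and 2 lower by the rule, against 2.31% and 1.53% of all genes. These were Osgin1, an oxidative stress-induced growth inhibitor, at 115, 94.2 and 184 CPM (-0.80 ± 0.20), and Gstp1, a glutathione transferase, at 10.7, 13 and 22.3 CPM (-0.86 ± 0.18). The median log2 difference of the list was -0.10. Of 17 other peroxide and superoxide enzymes 15 were measured, all at 20 CPM or more, and 0 met the rule in either direction (median -0.20). Of 8 metal genes 2 reached 20 CPM, and 0 met the rule.

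In injured PTEC-like cells 0 related genes at 20 CPM or more met the rule as higher, against 4.59% of all genes. Slc7a11 and Glrx, whose group means were below 20 CPM, met it as higher. As lower it was met by 5 of 20 NRF2 axis genes (Osgin1, Ephx1, Gstm1, Blvrb and Fth1), 5 of 14 peroxide and superoxide enzymes (Gpx4, Gss, Prdx5, Txnrd2 and Ggt1) and 2 of 5 metal genes (Slc30a1 and Slc39a8), named after their values were seen, against 5.37% of all genes. The same injured cells differed in PTEC marker RNA as given above, and its part in these lists was not tested.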

How the data were processed

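Perfused kidneys (2 Aoah-/- mice, 1 WT mouse) were digested with collagenase IV and DNase I, and single cells were sequenced with 10x Genomics chemistry. The authors deposited raw UMI counts per gene and barcode. The submitters' processing notes name Cell Ranger 3.1.0, STAR, Seurat 4.2.0 and mm10, while the deposited matrix headers name Cell Ranger 6.1.2, and which version made the counts could not be settled. The lowest UMI total was 500, 1672 and 500 in Aoah-/- mouse 2, Aoah-/- mouse 3 and WT mouse 3, so cells entered at unequal depth limits.

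Barcodes under 200 genes or over 50% mitochondrial UMIs were removed (16.3%, 20.3% and 21.1% of all), which left median depths of 3357, 3678 and 3859 UMIs. The 10 genes and the related lists were left out of the 2000 variable genes. Cells were clustered with scanpy 1.11.5 (50 components, 15 neighbours, Leiden resolution 1, Python 3.11.15), and 27 of 39 clusters were named from markers, which covered 50011 of 59262 kept cells. Names were rebuilt here and may differ from those of the study. Doublets were kept: Scrublet called 544, 0 and 201 cells, and with 0 calls in Aoah-/- mouse 3 its calls were not used. An alternative left out the 10% of cells with the highest Scrublet scores of each library, and how well the scores rank doublets in Aoah-/- mouse 3 was not tested. UMIs were summed per class and library and divided by all UMIs of that class, with exact Poisson 95% intervals. Background shares used all genes at 20 CPM or more in either group. Shares of cells were thinned to 1000 UMIs.

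All 10 genes were described in every class. From the related lists those meeting the rule in PTEC-like cells were named, and for each gene the 3 most correlated genes at 50 CPM or more in a class. The members and lists were chosen with earlier results of these data known. Alternatives changed the cell filters, clustering, doublets, scaling, weighting, fold, pseudocount and libraries. Promoters came from RefSeq, and a promoter of Gclc was not used here.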

Additional observations from a re-analysis of the deposited data

Results flagged for a closer look

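For 5 genes the difference between Aoah-/- and WT mice had opposite directions in 2 cell classes. Both Aoah-/- libraries lay above WT in the first class named and both lay below it in the second. In each case the difference between the classes was not tested. The share of all genes with such opposite directions over the 18 classes was not counted. The rule as higher was met by 18.0% of all genes in granulocyte-like, 15.9% in smooth muscle-like and 4.13% in endothelial-like cells. As lower it was met by 17.6% in fibroblast-like, 5.37% in injured PTEC-like and 1.41% in intercalated-like cells. Gclc was higher in Aoah-/- endothelial-like cells (log2 difference 0.59) and lower in injured PTEC-like cells (-1.25). Gclm was higher in granulocyte-like cells (1.17) and lower in injured PTEC-like cells (-0.89). Both values in injured PTEC-like cells lost the rule at 500 genes, with 1 UMI minimum in every library and without the highest Scrublet scores, and under the last 2 Gclc turned to 0.16 and 0.22, so that the opposite directions of Gclc do not hold there. Srxn1 was higher in granulocyte-like cells (1.69) and lower in intercalated-like cells (-0.67). Mt1 was higher in smooth muscle-like cells (1.78), which numbered 51, 121 and 22, and lower in fibroblast-like cells (-1.06), which numbered 32, 179 and 364. Mt2 was higher in granulocyte-like cells (2.23), from 42, 34 and 2 UMIs, and lower in fibroblast-like cells (-2.07).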

How the results depend on the processing

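The number of genes that met the rule in PTEC-like cells, 3, was 1 with the mean of the values per cell and 2 to 4 under every other alternative run (2 and 3 without Aoah-/- replicate 2 or 3, 4 at the lower fold tried). Mt1 met the rule in 13 of 13 alternatives of cells, scaling and libraries, Mt2 in 12 and Gpx3 in 8. Gpx3 lost it at 20% mitochondrial UMIs, as a mean per cell, without cells that held an immune-marker UMI, at the common mix and without Aoah-/- replicate 2. The median log2 difference of the 10 genes, 0.19, ranged from 0.15 to 0.25, and from 0.05 to 0.28 with 1 Aoah-/- replicate left out. The number of genes higher in injured than in S1/S2-like cells, 2, was 1 at 20% mitochondrial UMIs, at cluster resolution 2, with the 10 genes among the variable genes, without mitochondrial genes in the total, as a mean per cell and at 2-fold, and 2 without any 1 library. Gclc in injured PTEC-like cells, -1.25, reversed to 0.16 with 1 UMI minimum in every library and to 0.22 without the highest Scrublet scores. Under those and at 500 genes Nqo1, Gclc and Gclm lost the rule, and Sod2 kept it in 3 of 11 alternatives and Mt2 in 6. Of the genes that did not meet it as reported in these cells, Srxn1 met it as lower in 2 of 11. Gpx3 met it as higher in 3 and Mt1 in 2. In macrophage-like cells Mt1 met the rule in 4 of 12 alternatives, Mt2 in 12, and Gclc, which did not meet it as reported, in 9. The causes were not tested. Other classes were not recomputed under these settings. Over PTEC-like genes the rule was met by 3.83% at 20 CPM, 3.69% at 50 CPM and 21.9% with no filter. No paired analysis was possible because the groups share only replicate number 3, and without the single WT library no comparison of genotypes remains. Depth limits Mt2 in PTEC-like cells and all genes in the small injured, fibroblast-like and granulocyte-like classes.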
